A study of Mus musculus with 35 samples.

Results

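The nuclei described here are excitatory hippocampal nuclei that carry RNA of Pde11a together with RNA of Dcn, Epyc or Cpne7, a combination labelled as ventral pyramidal neurons. A barcode was taken when it had at least 1000 detected genes, at least 1 molecule (unique molecular identifier, UMI) of the excitatory gene Slc17a7, and at least 5 UMIs of the 4 markers in all, from at least 2 of them and with Pde11a among them. Barcodes with more than 1 UMI of the granule cell gene Prox1, or more than 2 UMIs of Iyd and Ccbe1, of Gad1 and Gad2, or of Mog and Mag, were left out. In all 14 libraries 6154 of 144991 barcodes met the rule, 5.01% of the 122747 with at least 1000 genes. They were 15.9% of the 38602 barcodes that met every term but those on the 4 markers, called non-granule excitatory nuclei below. Measured values chose these nuclei, so the levels of the markers, and of every gene compared between these nuclei and others, are given as a description without a test.

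The study set a mouse model of tauopathy beside a mutation, named CLEAR, that is taken here to lie at the gene of a lysosomal proton pump subunit. Single-nucleus libraries (10x 3′ v3 chemistry) came from frozen hippocampus of C57BL/6 mice aged 9 months, 3 of WT, 3 of PS19, 4 of CLEAR and 4 of CLEAR_PS19, each group holding 1 female beside males. PS19 mice carry a mutant human tau transgene driven by the mouse prion protein (Prnp) promoter, which is active in many cell types and not in these neurons alone. CLEAR mice, as far as the design is known, have a changed CLEAR element, a short DNA motif that the transcription factor TFEB binds, at Atp6v1h, and CLEAR_PS19 mice carry both changes. Whole-hippocampus (bulk) libraries came from WT and PS19 mice, 5 and 4 at 9 months and 6 and 6 at 4 months. Nothing in the labels says that libraries came from separate animals, so p-values measure the spread between these libraries.

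The hippocampus changes along its length, and its ventral pole, which connects with the amygdala, hypothalamus and prefrontal cortex, is known for roles in emotion and social behaviour. Pde11a encodes a phosphodiesterase that breaks down both cAMP and cGMP, and in the rodent brain its RNA and protein are known to concentrate in ventral CA1 and subiculum. Dcn (decorin) and Epyc (epiphycan) are small leucine-rich proteoglycans of the extracellular matrix, best known from connective tissue and cartilage. Cpne7 is a copine, a family of calcium-dependent membrane-binding proteins.

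The label was set beside genes outside the rule. CA1-marker nuclei served as the neighbour: 1079 non-granule excitatory nuclei, 32 to 111 per library, with at least 3 UMIs of Mpped1, Fibcd1 and Wfs1 from at least 2 of them and at most 1 UMI of the 4 markers. All 5 ventral genes listed were at least 2-fold higher in the Pde11a nuclei, measured as the mean over libraries of the log2 ratio of CPM, UMI counts scaled to a common library total. These were Nr2f2 (a nuclear receptor, 2.33), Gpc3 (a glypican, 2.22), Etv1 (a transcription factor, 1.94), Grp (gastrin-releasing peptide, 1.79) and Htr2c (a serotonin receptor, 1.28). Their median was 1.94, beside 0.10 over all genes compared. Of all genes compared, 3.28% were at least 2-fold higher with the same sign in all libraries. Of the 5 genes listed for dorsal CA1, Wfs1 (-3.59), Fibcd1 (-0.97), Zbtb20 (-0.51) and Lefty1 (-0.38) were lower, and Ccn3 was higher (2.05). Wfs1 and Fibcd1 helped to choose the CA1-marker nuclei, so their difference was built in. Mpped1, also used to choose them, stood at 184 CPM against 201, and the CA1 gene Man1a at 459 against 484. Beside these nuclei, all listed ventral genes thus stood with the label, and of the dorsal genes Ccn3 stood against it. All 6 genes listed for pyramidal neurons had negative ratios, with a median of -0.38 beside 0.10 over all genes. None of them was at least 2-fold lower with the same sign in all libraries. Their summed group means were 1209 to 1445 CPM in Pde11a nuclei and 1585 to 1952 in CA1-marker nuclei. The CA1-marker nuclei were chosen on 2 of the dorsal genes and for at most 1 UMI of the 4 markers. The ventral ratios may be set in part by that choice and are no independent check of the label. Genes listed for other fields were present as well. Fn1, listed for subiculum, stood at 35.8 CPM against 13.96 (1.72), and the other subiculum gene compared had a negative ratio. All 3 CA3 genes compared had positive ratios, with Grik4 at 1.96 and Cpne4 at 2.27. Of 6 genes compared that are listed for deep cortical layers, 2 had positive ratios, Fezf2 with 1.87 among them, and 4 negative ones, with a median of -0.25 and none at least 2-fold apart on average with the same sign in all libraries. The nuclei are therefore called Pde11a nuclei here, and no single field of the hippocampus is claimed for them.

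Each library held 228 to 671 Pde11a nuclei. Their median depth was 9001 to 18653 UMIs per nucleus, and their UMIs were summed per library. Scrublet, which simulates doublets, scored the barcodes of each library. The highest scores were called doublets up to an assumed rate, 6.12% to 13.5% by library. Of the Pde11a nuclei 387 (6.29%) were called, a share that depends on the assumed rate. They were kept, and results without them are among the alternatives. Any pair of libraries shared 10 to 70 barcodes, and 185 of the Pde11a nuclei had a barcode that was also found in another library. The defining fibroblast genes, which matter because fibroblasts are rich in Dcn, were near 0 in these nuclei, at 0.26 CPM for Col1a1, 0.24 for Col1a2, 0.21 for Col3a1 and 0.11 for Slc6a13. The fifth gene of that list, Lum, stood at 4.09 CPM against 0.79 in CA1-marker nuclei, and the list summed to 2.03 to 7.32 CPM over the 14 libraries.

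Most nuclei were chosen on 2 or 3 kinds of marker: 2569 had 2 kinds, 2953 had 3 and 632 had all 4. Cpne7 was found in 6071 of them (98.7%), Dcn in 2177 (35.4%) and Epyc in 2123 (34.5%). Pde11a and Cpne7 alone, without either proteoglycan, carried 2490 nuclei (40.5%). The summed marker UMIs had a median of 11 and a maximum of 88. At the threshold, 553 nuclei had exactly 5 UMIs, and 604 nuclei that met every other term had 4. Over all non-granule excitatory nuclei, at least 1 UMI was found in 23.1% for Pde11a, 9.58% for Dcn, 11.1% for Epyc and 44.2% for Cpne7. Among 9001 granule nuclei, which set a level for free RNA, the shares were 3.41% for Pde11a, 3.09% for Dcn, 0.955% for Epyc and 10.0% for Cpne7. The shares in granule nuclei were the lower of each pair, at median depths of 7118 to 13370 UMIs over libraries.

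The marker levels are given first. Pde11a stood at 375 ± 57.5 CPM (SD, n = 14 libraries) and at 5.00 in CA1-marker nuclei. Dcn stood at 73.9 ± 23.1 CPM against 0.890, Cpne7 at 410 ± 83.0 against 23.2, and Epyc at 40.0 against 4.27. These gaps follow from the choice of both sets of nuclei.

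Genes of at least 50 CPM in either set of nuclei, with 1 sign in every library, were ranked by their ratio. Those with the largest ratios that the rule did not name included 5 of adhesion, guidance or growth factor reception. Ntng1, which encodes the axon guidance protein netrin-G1, stood at 772 CPM against 95.9 in CA1-marker nuclei (log2 ratio 3.17). Kirrel3, an adhesion molecule of the immunoglobulin family, stood at 1397.5 against 199.65 (2.85). Cdh13, a cadherin anchored to the membrane by lipid, stood at 218 against 28.3 (3.04), the ephrin ligand Efna5 at 167 against 27.1 (2.85), and Gfra1, a receptor subunit for GDNF family ligands, at 58.8 against 13.4 (2.77). Each was higher in all 14 libraries. Against all other non-granule excitatory nuclei the mean log2 ratios were smaller. They were 0.92 for Ntng1, 0.79 for Kirrel3, 0.22 for Cdh13, 0.91 for Efna5 and 0.34 for Gfra1. Cdh13 stood at 183 CPM in those nuclei and Gfra1 at 47.1, so the large ratios are not particular to Pde11a nuclei. The remaining genes with the 15 largest ratios were Zfp804b, the collagen gene Col23a1 and 5 genes known by identifier-like names (Gm42705, Gm15261, B130024G19Rik, Gm45321 and C130073E24Rik), beside Pde11a, Dcn and Cpne7.

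On the low side the guidance receptor Epha7 stood at 226.5 CPM against 704 (-1.65), the non-coding RNA Rmst at 10.1 against 105 (-3.31), and the secreted synaptic protein gene Olfm3 at 26.9 against 144 (-2.49). Others among the 15 lowest were Vwc2l, Plekhg1, Pdzrn3, Lhfp, Col11a1, Fhod3, Trhde and Wfs1. Of 9456 genes compared, 310 (3.28%) were at least 2-fold higher by the mean ratio, with the same sign in all libraries, and 92 (0.973%) at least 2-fold lower by the same rule. This rule, which does not ask for 2-fold in each library, holds for the counts of gene lists given next. Nothing is read from these counts, since the choice of nuclei is part of them.

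Other members of the marker families differed among themselves. Of 15 phosphodiesterase genes compared, 3 were at least 2-fold higher by that rule, beside 3.28% of all genes: Pde11a, on which the nuclei were chosen, Pde9a and Pde1a, a calcium-calmodulin-activated enzyme at 1350 CPM against 671 (log2 ratio 1.02). Pde4b, which hydrolyses cAMP, stood at 431 against 222 (0.99), while Pde10a (-0.18), Pde8b (-0.32) and Pde4d (-0.58) were lower. Of 9 copines, Cpne2 (3.64), Cpne4 (2.27) and Cpne7, a marker of the rule, were higher, and Cpne6 (0.23) and Cpne8 (-0.07) were near equal. Cpne9 had a mean ratio of -1.24 but not the same sign in all libraries, so no copine was counted as lower. No gene of the cyclic nucleotide list beyond the phosphodiesterases was at least 2-fold higher, and the calcium-stimulated adenylyl cyclase gene Adcy8 was lower (-1.11), which made 1 of 25, beside 0.973% of all genes. The cGMP-dependent kinase gene Prkg1 (-0.12), the adenylyl cyclase gene Adcy2 (-0.32) and the guanylyl cyclase gene Gucy1a2 (0.11) were nearer to equal.

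Of 14 genes of neuropeptides and modulator receptors compared, 3 were at least 2-fold higher by the same rule and 1 lower, beside 3.28% and 0.973% of all genes. Adra1a, an alpha-1 adrenergic receptor, stood at 49.1 CPM against 0.87 (log2 ratio 5.53). Grp and Htr2c were the others at least 2-fold higher. Oprm1, the mu opioid receptor, had a ratio of 1.48 but was not counted by that rule. Its mean in CA1-marker nuclei was 11.1 CPM in WT and 58.1 in PS19. Over libraries it stood at 44.8 to 85.0 CPM in Pde11a nuclei and 83.4 to 167 in all non-granule excitatory nuclei. The cannabinoid receptor Cnr1 had a ratio of 0.85 and the serotonin receptor Htr4 0.52. The muscarinic acetylcholine receptor Chrm3 was lower, at 840 against 1880 (-1.16). Of 19 glutamate receptor genes, 3 (Gria4, Grik4 and Grin3a) were at least 2-fold higher by that rule, beside the same 3.28%, with Gria4, an AMPA receptor subunit, at 519 against 254 (1.08). Grik2 (0.62), Grin2a (-0.43), Grm5 (0.23), Gria1 (-0.13) and Gria2 (0.08) were nearer to equal.

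None of 17 V-ATPase and none of 28 lysosomal genes compared was 2-fold apart by that rule, a count near the 3.28% of all genes that were higher and 0.973% that were lower, so nothing is read from it. The highest in level had ratios of -0.03 for Atp6v0a1, 0.07 for Atp6v0b and 0.22 for Atp6v1b2 among the pump subunits, and 0.15 for the sulfatase gene Arsb and 0.18 for the saposin precursor gene Psap.

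The small leucine-rich proteoglycans beyond the markers were scarce. Podn stood at 6.85 CPM against 0.88, Lum (lumican) at 4.09 against 0.79 and Kera (keratocan) at 1.87 against 0.38. Podn and Lum were higher in all 14 libraries and Kera in 13. Dcn, Lum, Kera and Epyc are neighbours: in that order and all on the plus strand they occupy 97479609 to 97518143, 97565128 to 97572703, 97606879 to 97613692 and 97644068 to 97682454 of mouse chromosome 10 (GRCm38, GENCODE M21). Pde11a lies on the minus strand of chromosome 2 (75989141 to 76338774) and Cpne7 on the plus strand of chromosome 8 (123117374 to 123135182).

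**Figure D1:**
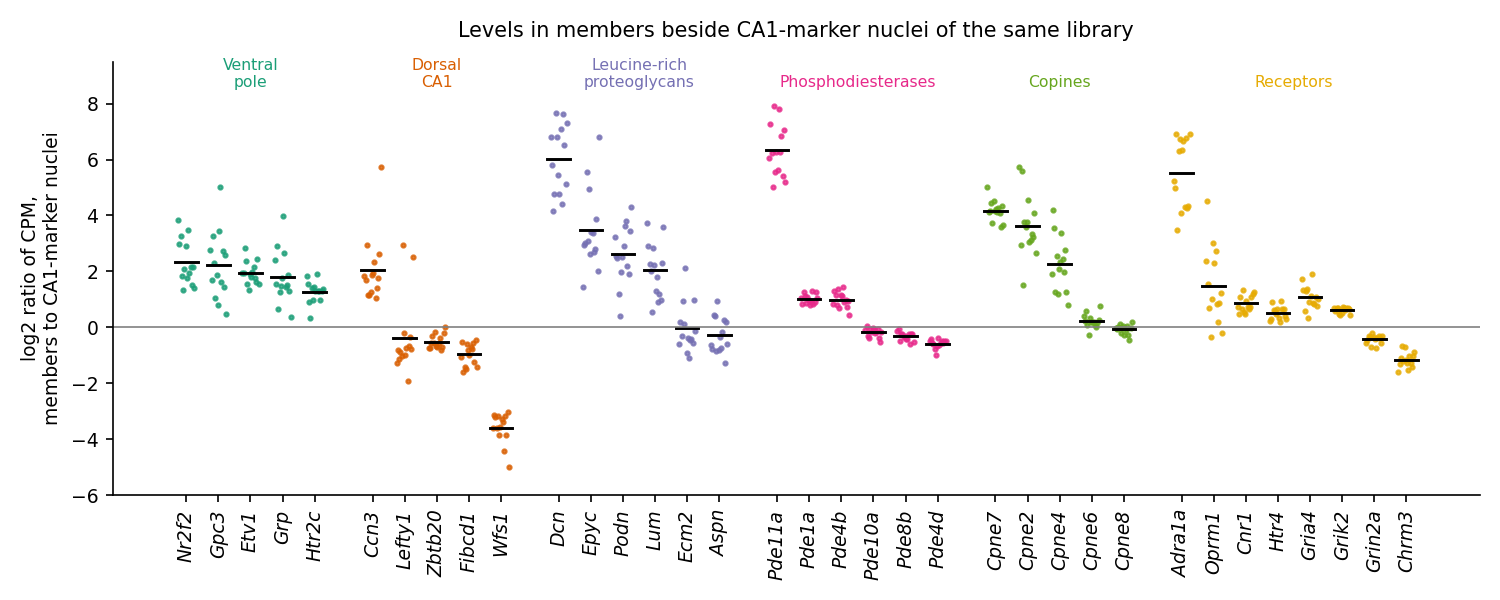
Levels of ventral and dorsal genes and of the marker families in Pde11a nuclei (members) relative to CA1-marker nuclei of the same library. The vertical axis is the log2 ratio of CPM (prior count 2), each dot is 1 of 14 libraries and the black line is their mean; the 5 ventral genes lie above 0 in every library, and Chrm3 lies below 0.

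The Pde11a nuclei were not uniform, and were split by each proteoglycan marker in turn. Epyc was found in 29.2% of nuclei with Dcn and in 37.4% of those without, shares from which nothing is read, since the rule asks for a summed count of both. Both kinds of split held nuclei of like depth: the median was 14691 UMIs with Dcn and 13852 without, and 14683 with Epyc and 13980 without. Genes below were read from the same nuclei that the splits divide, so these values are a description.

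All 5 listed ventral genes had positive mean log2 ratios of nuclei with Dcn to those without, 4 of them in all 14 libraries. The share of all genes with such ratios is not given, so nothing is read from that count. Gpc3 stood at 41.2 CPM in nuclei with Dcn and 6.12 in those without (log2 ratio 2.73), and Htr2c (1.16), Grp (0.97) and Nr2f2 (0.92) were higher too, all in 14 of 14 libraries, with Etv1 at 0.35 and higher in 13. Of the 5 genes listed for dorsal CA1, Ccn3 had a positive ratio (0.85) and 4 had negative ones, at -0.30 for Wfs1 (higher in 4 libraries), -0.40 for Fibcd1 (higher in 3) and -1.28 for Lefty1. The fourth of these, Zbtb20, a zinc finger repressor, stood at 540 CPM with Dcn and 1423 without (-1.41). Among other genes, the netrin receptor gene Unc5d stood at 599 against 99.5 (2.52), the G protein regulator Rgs6 at 275 against 70.1 (2.01), the imprinted gene Nnat at 600.3 against 201 (1.57) and Kirrel3 at 2321 against 876 (1.43). Chrm3 was lower with Dcn, at 315 against 1139 (-1.87), as were Slc17a6 (-1.81), another vesicular glutamate transporter gene, and Pou3f1 (-1.17). Fn1 (fibronectin), listed for subiculum, stood at 13.4 against 48.6 (-1.92) and was lower in 13 of 14 libraries. The other genes listed for subiculum were scarcer and went both ways. Slc17a6 and Nts (-1.17) were lower with Dcn, and Tpbg (0.93) and Ly6g6e (0.18) had positive ratios.

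The Epyc split is given next. Lum stood at 7.89 CPM with Epyc and 1.98 without (log2 ratio 1.81), and Kera at 3.83 against 0.77 (1.70), each higher in 14 of 14 libraries. By Dcn, the fourth gene of that stretch of chromosome 10, neither Lum (0.10) nor Kera (-0.01) differed by more than the spread over libraries. Dcn itself was lower in nuclei with Epyc (-0.58). All 5 listed ventral genes had negative mean ratios in this split, each higher in 1 to 4 libraries. They were -0.93 for Gpc3, -0.46 for Nr2f2, -0.38 for Grp, -0.35 for Htr2c and -0.18 for Etv1. For this split too the share of all genes with such ratios is not given, so nothing is read from the count. Of the genes listed for dorsal CA1, Lefty1 (0.64), Fibcd1 (0.32), Wfs1 (0.10) and Zbtb20 had positive ratios and Ccn3 (-0.12) a negative one. Gm10754, which overlaps Epyc and cannot be told apart from it with certainty, was higher (0.78), as were Zfhx4 (0.79), Galntl6 (0.65) and Zbtb20 (0.54). Fn1 was lower, at 12.6 against 49.3 (-2.12), and so were the transcription factor gene Tshz2 (-1.52), Efna5 (-1.42), Cdh13 (-1.32) and Unc5d (-1.29). Fn1 was thus high mainly in Pde11a nuclei without either proteoglycan.

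**Figure D2:**
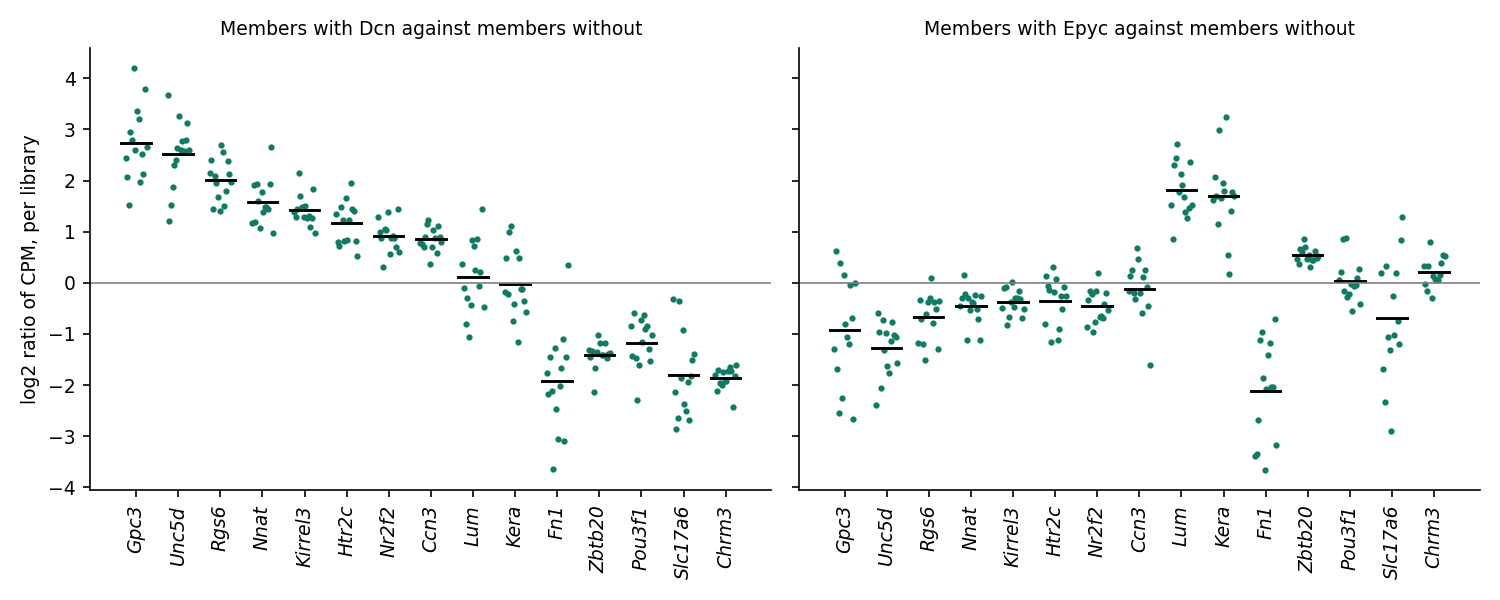
Gene levels within the Pde11a nuclei (members), with against without Dcn and with against without Epyc. The vertical axis is the log2 ratio of CPM (prior count 2), each dot is 1 of 14 libraries and the black line is their mean; Lum and Kera lie above 0 in the Epyc split and around 0 in the Dcn split, and Gpc3 lies above 0 in the Dcn split.

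The first comparison asked whether the tau transgene or the CLEAR mutation went with fewer Pde11a nuclei. Their share of non-granule excitatory nuclei was 19.4%, 21.1% and 20.8% in the 3 WT libraries. It was 9.59%, 14.7% and 15.7% in PS19. It was 14.6%, 12.5%, 24.97% and 15.8% in CLEAR, and 16.4%, 12.5%, 16.2% and 15.6% in CLEAR_PS19. All PS19 values lay below all WT values, while CLEAR and CLEAR_PS19 overlapped, with CLEAR 3 at 24.97% above the other 3. The means were 20.4% ± 0.897 (SD, n = 3), 13.3% ± 3.29 (n = 3), 17.0% ± 5.51 (n = 4) and 15.2% ± 1.81 (n = 4).

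Averaged over both CLEAR backgrounds, the share was 4.44 percentage points lower with the tau transgene (difference -4.44, exact two-sided permutation p = 0.0414 over 1400 relabellings). After Benjamini-Hochberg adjustment over the 2 share tests it did not pass (adjusted p = 0.0829), except without CLEAR 2, where the difference was -5.18 and the adjusted p 0.0400. With the replicate numbers kept together in the permutation, p was 0.0781 (adjusted 0.156). The difference was -5.21 points in males and -2.64 in females, the latter from 1 library a group. For the CLEAR mutation the difference was -0.812 points (exact two-sided permutation p = 0.687 over 1225 relabellings).

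A rule on summed UMIs is met more easily by deep nuclei, and the shares were recomputed at equal depth. When every barcode was thinned to 5000 UMIs, the shares were lower, with means of 6.64% (WT), 4.66% (PS19), 7.04% (CLEAR) and 8.06% (CLEAR_PS19). The difference with the tau transgene was then -0.484 points (exact permutation p = 0.703), and the CLEAR difference turned to 1.90. At 3000 UMIs the means were 2.13%, 1.66%, 1.90% and 2.63%, and the differences 0.133 and 0.367. At both depths the PS19 mean stayed below WT and the CLEAR_PS19 mean lay above CLEAR. With lower shares, differences in points are not on the scale of those before thinning. The other terms of the rule were asked again of the thinned counts, without the gene minimum, so the denominator changed too. Thinning to 5000 left out the shallower barcodes: 8096 (WT), 12382 (PS19), 12290 (CLEAR) and 17505 (CLEAR_PS19).

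The mix of markers inside the Pde11a nuclei varied as well, again without a test. Nuclei with an Epyc UMI made up 37.2%, 36.8% and 38.4% of them in WT and 28.9%, 22% and 40.1% in PS19. They made up 38.1%, 41%, 43% and 32.5% in CLEAR, against 33.2%, 27.2%, 24.8% and 33.3% in CLEAR_PS19. PS19 2 had the lowest share with Epyc (22%) and also the highest share with Dcn (45.8%), and the groups overlapped in both backgrounds. The means over libraries with Dcn were 32.1% (WT), 35.1% (PS19), 33.5% (CLEAR) and 39.1% (CLEAR_PS19).

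**Figure D3:**
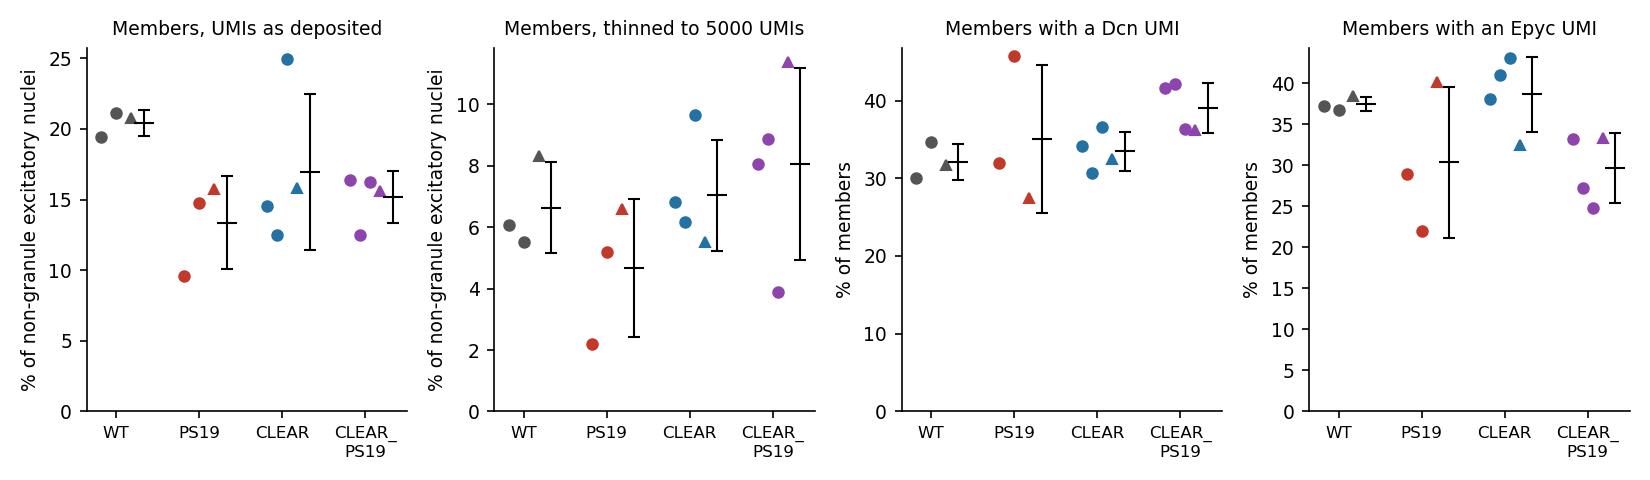
Share of Pde11a nuclei (members) among non-granule excitatory nuclei in each library, as deposited and after thinning, and the share of Pde11a nuclei with a UMI of Dcn or of Epyc. The vertical axes are percent, circles are males, triangles females, and the black bar is the mean ± SD of a group; as deposited, the 3 WT libraries lie at 19.4% to 21.1% and the 3 PS19 libraries at 9.59% to 15.7%.

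The marker genes were also read where nuclei had not been chosen on them, in the summed counts of all non-granule excitatory nuclei. Pde11a stood at 110, 123 and 135 CPM in WT against 51.1, 93.3 and 97.5 in PS19. With the CLEAR mutation it stood at 71.8, 64.7, 155 and 104 without the transgene and at 91.2, 86.3, 99.5 and 130 with it. The WT and PS19 values did not overlap, and the CLEAR and CLEAR_PS19 values did. Epyc stood at 21.2, 15.7 and 21.9 CPM in WT against 8.67, 9.35 and 24.0 in PS19. With the CLEAR mutation it stood at 18.8, 16.9, 25.5 and 16.2 without the transgene and at 16.4, 14.3, 9.55 and 24.8 with it. Epyc overlapped in both backgrounds, and the females PS19 3 and CLEAR_PS19 4 were the highest of their groups. By edgeR's quasi-likelihood test with Benjamini-Hochberg adjustment, the tau transgene went with log2 changes of -0.29 for Pde11a (adjusted p = 0.664), -0.46 for Epyc (0.432), 0.13 for Dcn and -0.17 for Cpne7, none past 0.05. In that test 1% of 19668 genes were called, and 0.00508% for the CLEAR mutation, where none of the 4 was called either.

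Bulk hippocampus gave the same markers in samples the rule had not used, with the limit that fewer cells of a type and less RNA per cell cannot be told apart and that Dcn also comes from fibroblasts. At 9 months Pde11a stood at 14.1, 17.8, 19.7, 18.8 and 21.6 CPM in WT and at 15.3, 19.0, 16.5 and 18.8 in PS19. Epyc stood at 2.74, 4.67, 2.65, 2.85 and 3.25 in WT and at 2.66, 2.41, 2.58 and 2.89 in PS19. Both genes overlapped between the genotypes. The log2 changes in PS19 at 9 months were -0.08 for Pde11a, 0.23 for Dcn (adjusted p = 0.381), -0.29 for Epyc (0.346) and -0.07 for Cpne7, by edgeR's quasi-likelihood test. None of the 4 was called, while 12.8% of all genes were.

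At 4 months the changes were 0.12, -0.05, 0.06 and -0.03 in the same order, with 0.0186% of genes called. The difference between the ages was -0.20, 0.27, -0.35 and -0.03, with 5.41% of genes called and none of the 4. Cpne7, at 238 ± 21.1 CPM (SD, n = 5) in WT and 227 ± 18.2 (n = 4) in PS19 at 9 months, spread little within groups. Dcn spread more, at 65.8 ± 11.8 and 76.8 ± 22.2.

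Within the Pde11a nuclei, the CLEAR mutation was checked first on the gene it is taken to change. Atp6v1h, which encodes subunit H of the V-ATPase and lies on the plus strand of chromosome 1 (5070018 to 5162529), stood at 121, 124 and 107 CPM in WT and 138, 114 and 115 in PS19. It stood at 71.0, 78.3, 76.1 and 65.4 in CLEAR and at 67.5, 74.0, 73.6 and 70.0 in CLEAR_PS19. Every library with the CLEAR mutation was below every library without it. The log2 change was -0.75 (SE 0.0631, adjusted p = 3.66e-05, edgeR's quasi-likelihood test), and in CA1-marker nuclei it was -0.71 (SE 0.103, adjusted p = 0.00828).

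**Figure D4:**
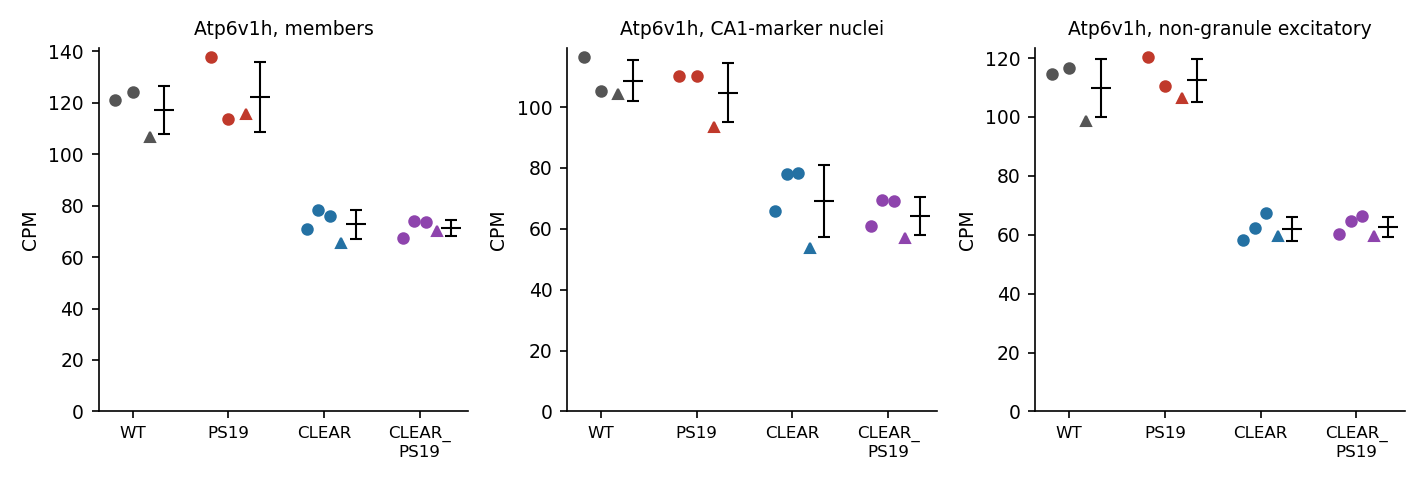
Atp6v1h in the summed counts of Pde11a nuclei (members), of CA1-marker nuclei and of all non-granule excitatory nuclei of each library. The vertical axes are CPM from 0, circles are males, triangles females, and the black bar is the mean ± SD of a group; in Pde11a nuclei the 8 libraries with the CLEAR mutation lie at 65.4 to 78.3 CPM and the 6 without it at 107 to 138.

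Atp6v1h was the 1 gene called for the CLEAR mutation among 15557 tested in Pde11a nuclei (0.00643%), and in CA1-marker nuclei 0.0284% of genes were called. At an unadjusted p under 0.05, 1774 genes passed, and without CLEAR_PS19 4 the count called was 5. Of 20 V-ATPase genes tested, 13 had positive and 7 negative changes and Atp6v1h was the 1 called, with a median of 0.10 beside 0.01 over all genes. Atp6v0c, a subunit of the membrane ring, had a change of 0.62. It stood at 71.5, 78.1, 125 and 131 CPM in CLEAR 1, CLEAR 2, CLEAR_PS19 1 and CLEAR_PS19 2, and at 60.0, 50.4, 69.7 and 35.7 in the other CLEAR and CLEAR_PS19 libraries, beside 37.2 to 59.4 without the mutation. Those 4 libraries form 1 of 3 library sets, a grouping that no label gives and that came from clustering the libraries by the summed counts of their granule nuclei. The part of that library set in the values was not tested. Atp6v1d, of the central stalk, had a change of 0.23. Atp6v0a1 (0.08), Atp6v0b (0.16) and Atp6v1b2 (0.04) had smaller values. Of 42 lysosomal genes tested, 26 had positive and 16 negative changes and none was called.

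The tau transgene was read through Prnp, whose own RNA and transgene sequence shared with it cannot be told apart. Prnp stood at 66.2, 73.7 and 69.9 CPM in the Pde11a nuclei of WT and at 120, 134 and 106 in PS19. It stood at 87.0, 86.1, 74.0 and 83.3 in CLEAR and at 184, 193, 141 and 111 in CLEAR_PS19. The libraries with the transgene lay above those without it in both backgrounds. The change was 0.84 on the log2 scale (SE 0.0984, adjusted p = 0.000817, edgeR's quasi-likelihood test) and 0.95 in CA1-marker nuclei (adjusted p = 0.00103, with 0.151% of genes called there). Mouse Mapt, the endogenous tau gene, had a change of 0.02 (SE 0.0746). In bulk it was called higher in PS19 by edgeR's quasi-likelihood test. The log2 change there was 0.60 at 4 months (adjusted p = 3.89e-07) and 0.47 at 9 months (adjusted p = 8.28e-06). Whether reads of the human tau transgene were counted under mouse Mapt was not tested. No change of the endogenous gene is therefore read from these values.

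In Pde11a nuclei 18 of 15557 genes (0.116%) were called for the tau transgene, 17 higher and 1 lower, and 1229 passed an unadjusted p of 0.05. With the replicate number as a block, 27 were called, 17 of them shared, when numbers were kept within each CLEAR background. When they were not, 32 were called. Whether the numbers pair libraries was not shown, since same-numbered libraries were compared with sex and library set left in. The count ran from 8 without WT 2 to 59 without PS19 3, and was 11 without CLEAR 1. It was 6 without CLEAR 1, CLEAR 2, CLEAR_PS19 1 and CLEAR_PS19 2, which share a library set. The genes called higher included Prnp, genes of the interferon response, genes of complement and lysosome that are typical of microglia, and 3 non-coding RNAs of 1 stretch of chromosome 3, beside Cd9, Neat1 and Apod. The gene called lower was Fbxl7.

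Some genes of the interferon response were among those called higher. Ddx60, an RNA helicase of antiviral defence, stood at 0.332, 0.385 and 0.393 CPM in WT and at 6.97, 11.2 and 2.40 in PS19. It stood at 0.283, 0.160, 0.381 and 0 in CLEAR and at 1.15, 1.51, 1.89 and 0.830 in CLEAR_PS19. These are few molecules, 3 UMIs in each WT library and 30, 49 and 12 in PS19, and at most 5 in any 1 nucleus. The groups were separate in both backgrounds, and the change was 3.30 (SE 0.348, adjusted p = 0.000288, edgeR's quasi-likelihood test), higher in 7 of 7 same-numbered pairs. Ddx60 may have passed the filter on low counts only through libraries with the transgene, and its call is given with that limit.

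Oasl2, of the 2′-5′ oligoadenylate synthetase-like family, stood at 0, 0 and 0.393 CPM in WT and at 5.58, 21.3 and 5.59 in PS19. It stood at 0, 0, 0.254 and 0.483 in CLEAR and at 0.575, 1.51, 1.89 and 0.554 in CLEAR_PS19. PS19 2 alone held 93 of its UMIs, spread over 40 nuclei, against 3 UMIs in all of WT. The change was 4.34 (SE 0.665, adjusted p = 0.0117, edgeR's quasi-likelihood test). Oasl2 was not called without WT 2 or without the library set of CLEAR 1 and 2 and CLEAR_PS19 1 and 2. The size of its change is uncertain, since WT 1, WT 2, CLEAR 1 and CLEAR 2 held no UMI. It may have passed the filter on low counts only through libraries with the transgene. H2-D1, a class 1 histocompatibility gene that interferons raise, stood at 1.22, 1.79 and 0.786 in WT and 5.58, 7.31 and 1.60 in PS19, which overlapped. Its change was 1.36 (adjusted p = 0.0287, edgeR's quasi-likelihood test). A list of class 1 presentation genes held 9 in the files, of which 4 passed the filter on low counts (H2-D1, B2m, Tap2 and Tapbp). H2-D1 was the 1 of these called, beside 0.116% of all genes. That list was assembled after values had been seen, so nothing is read from its count. Gm44148, which overlaps the interferon gene Usp18 and cannot be told apart from it with certainty, had a change of 1.55 (adjusted p = 0.0322).

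Promoters of the called genes were searched for the interferon-stimulated response element, here spelled GAAANNGAAA on either strand, in RefSeq windows of GRCm38.p6 from 250 bases before to 50 bases after each start. Of 32851 windows, 1131 (3.44%) held it. Of the 13 called genes with a window, Ddx60 and Ctss held it, and of 21 genes with a window in a wider interferon list 11 did. The windows of Ddx60 (chr8:61927837-61928136, plus strand) and Ctss (chr3:95526536-95526835, plus strand) are shown because both genes were called and both hold the motif, in capitals. A match is a run of letters and says nothing of binding.
Ddx60: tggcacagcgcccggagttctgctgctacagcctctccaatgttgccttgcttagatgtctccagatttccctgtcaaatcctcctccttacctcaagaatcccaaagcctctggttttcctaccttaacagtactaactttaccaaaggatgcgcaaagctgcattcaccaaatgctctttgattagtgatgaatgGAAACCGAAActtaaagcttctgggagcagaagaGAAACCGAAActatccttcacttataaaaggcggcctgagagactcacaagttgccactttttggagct
Ctss: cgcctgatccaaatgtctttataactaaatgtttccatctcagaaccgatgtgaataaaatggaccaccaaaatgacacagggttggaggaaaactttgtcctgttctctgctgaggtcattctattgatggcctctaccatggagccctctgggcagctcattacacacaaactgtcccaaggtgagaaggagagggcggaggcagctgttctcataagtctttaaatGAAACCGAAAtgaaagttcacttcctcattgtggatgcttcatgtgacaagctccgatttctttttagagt
The motif begins at bases 198 and 232 of the Ddx60 window and at base 230 of the Ctss window, counted from its 5′ end.

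The interferon list, assembled after values had been seen and so given as counts alone, had 28 genes in the files, of which 17 passed the filter on low counts. Of these, 3 were called higher, Ddx60 and Oasl2 among them, beside 0.116% of all genes. A gene at low levels could pass the filter through the libraries in which it was high, so nothing is read from that count. Ifit1, an inhibitor of viral translation, stood at 2.77, 0.897 and 4.19 CPM in WT and at 9.29, 15.8 and 5.39 in PS19, but at 1.05, 1.13, 2.20 and 3.60 in CLEAR_PS19, with CLEAR at 1.98 to 3.05 inside that range. Eif2ak2, the double-stranded RNA kinase PKR, stood at 4.43, 2.69 and 4.46 in WT and 11.2, 18.5 and 7.59 in PS19, and at 3.22 to 4.32 in CLEAR and 3.32 to 6.76 in CLEAR_PS19, which overlapped. Neither was called.

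Nuclei with UMIs of at least 3 genes of the list were counted in each library. They made up 11.99%, 12.6% and 11.03% of Pde11a nuclei in WT and 38.2%, 29.7% and 18.7% in PS19. They made up 13.2%, 16.8%, 12.6% and 8.80% in CLEAR and 14.3%, 11.8%, 23.3% and 4.65% in CLEAR_PS19. PS19 was above the rest but for CLEAR_PS19 3. Pooled by genotype, the shares were 11.8% (WT), 27.3% (PS19), 12.7% (CLEAR) and 13.1% (CLEAR_PS19), and 1 nucleus of PS19 2 held UMIs of 19 of the genes. With nuclei thinned to 5000 UMIs and at least 2 genes asked for, the pooled shares were 5.6%, 18.8%, 8.06% and 9.95%. The pooled shares with at least 3 genes were 8.19%, 22.6%, 6.36% and 7.55% in CA1-marker nuclei and 5.67%, 14.4%, 4.78% and 5.38% in all other non-granule excitatory nuclei. By library, CA1-marker nuclei had 25%, 25% and 16.4% in PS19 and at most 14.5% in the other groups. In all other non-granule excitatory nuclei PS19 had 15.45%, 19.7% and 8.86%, and CLEAR_PS19 3 had 9.35%. Neither neighbour was thinned, and the list was assembled after values had been seen. The pooled share was thus highest in PS19 in both neighbours of the Pde11a nuclei, without a test.

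Of genes typical of microglia, 5 were called higher. C1qb, of the complement complex C1q, stood at 1.44, 0.513 and 1.70 CPM in WT and at 6.04, 9.37 and 3.60 in PS19. It stood at 1.70, 1.28, 1.14 and 1.77 in CLEAR and at 3.83, 4.15, 3.93 and 2.21 in CLEAR_PS19. The groups did not overlap in either background, and the change was 1.80 (SE 0.271, adjusted p = 0.0117, edgeR's quasi-likelihood test). C1qa (1.68, adjusted p = 0.0179) and C1qc (1.77, 0.0214) moved with it, as did Ctss, the lysosomal protease cathepsin S (1.62, 0.0215), and Ly86, a partner of a Toll-like receptor relative (2.14, 0.0215). C1qb was not called without the library set of CLEAR 1 and 2 and CLEAR_PS19 1 and 2, and C1qa neither without that set nor without WT 1, WT 2 or CLEAR 1.

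Beside these genes, a list of 12 genes typical of microglia summed to 16.8 to 18.9 CPM in the Pde11a nuclei of WT and 33.6 to 90.5 in those of PS19. The sums were 15.9 to 28.7 in CLEAR libraries and 35 to 41.8 in CLEAR_PS19 libraries. Of its 12 genes 8 passed the filter on low counts and 5 were called, the C1q genes, Ctss and Ly86, beside 0.116% of all genes. The list was chosen after these values were seen, and nothing is read from its count. The C1qb RNA was spread thin, with at most 6 UMIs in any nucleus. A second list, of 4 microglial marker genes of which C1qa is one, was led by P2ry12 at 100.3 CPM, which overlaps another locus and stood at 92.3 in CA1-marker nuclei. It summed to 76.3 to 147 CPM (WT), 116.5 to 169 (PS19), 82.5 to 142 (CLEAR) and 97.8 to 154 (CLEAR_PS19), and overlapped between groups. In counts summed over all libraries no gene of either list was at 0. What part free RNA of microglia had in the complement genes was not tested.

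Cd9, a membrane tetraspanin of many cells, stood at 3.21, 1.79 and 1.57 CPM in WT and at 12.1, 13.5 and 3.796 in PS19. It stood at 3.40, 5.28, 3.18 and 1.93 in CLEAR and at 6.23, 6.67, 8.18 and 3.87 in CLEAR_PS19, with overlap in the second pair. The change was 1.46 (SE 0.191, adjusted p = 0.00249, edgeR's quasi-likelihood test), lost when sex was left out of the model. The nuclear non-coding RNA Neat1 stood at 7.64, 4.62 and 6.95 in WT and 13.2, 20.1 and 13.99 in PS19, with a change of 1.04 (adjusted p = 0.0278) and a rise in 6 of 7 pairs. Apod (apolipoprotein D, typical of oligodendrocytes and fibroblasts) had a change of 1.03 (adjusted p = 0.0278). A list of oligodendrocyte genes summed to 69.9 to 108 CPM (WT), 104 to 119 (PS19), 75.1 to 128 (CLEAR) and 90.4 to 136 (CLEAR_PS19), and its part in Apod was not tested. Of its 5 genes 4 had positive changes with the transgene, 4 passed an unadjusted p of 0.05 and none was called, with a median of 0.62 beside -0.002 over all genes.

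**Figure D5:**
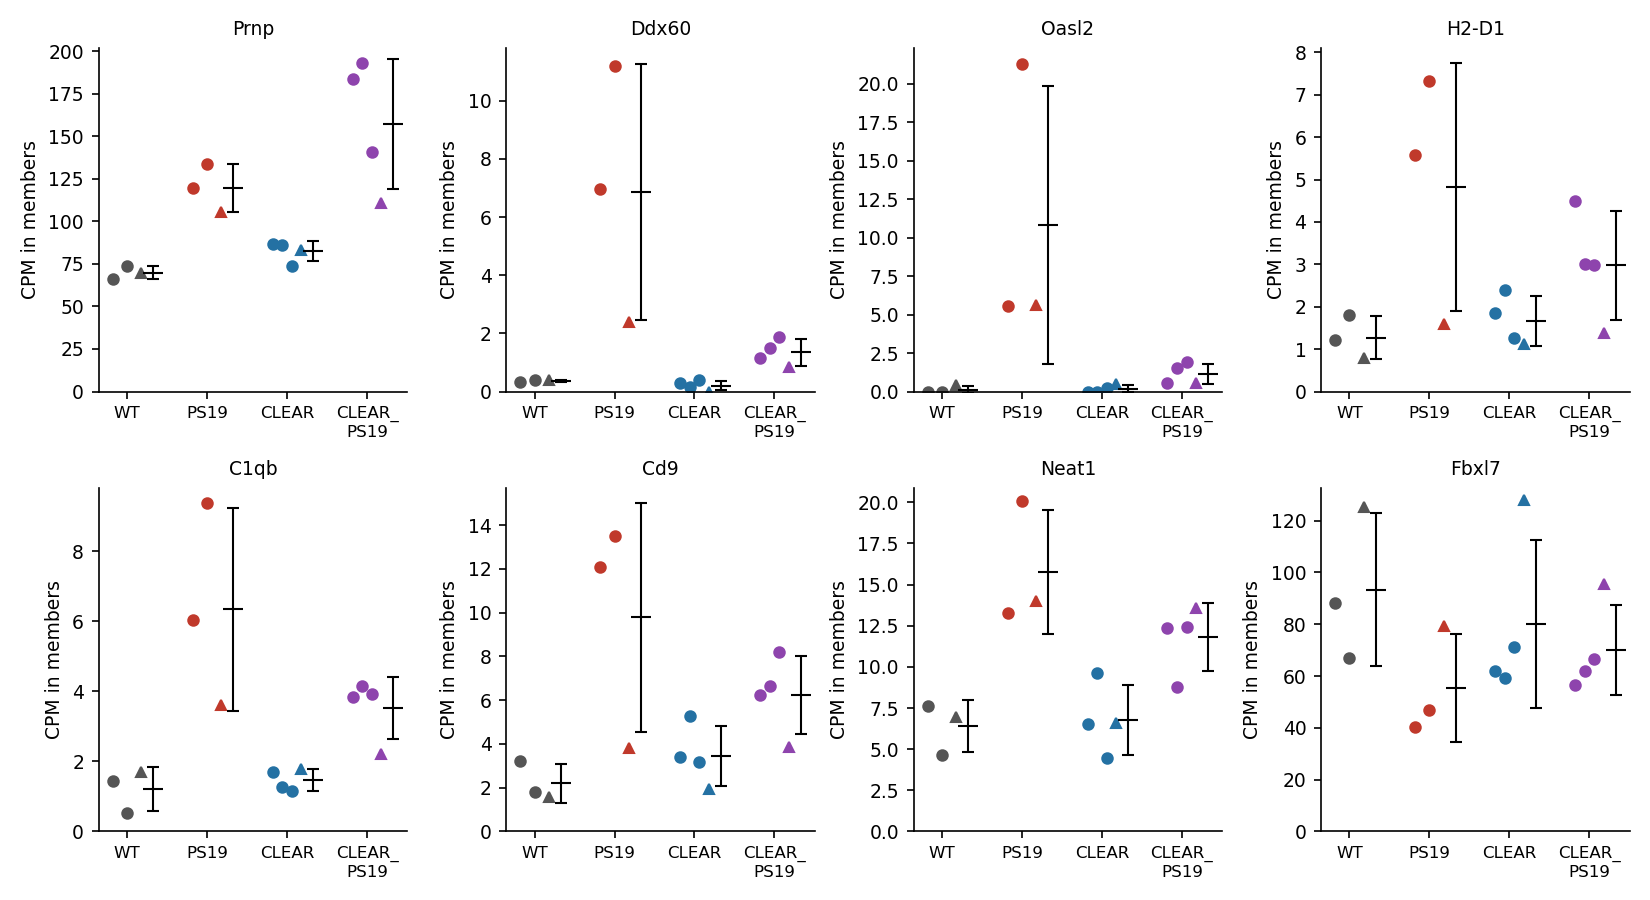
Genes called for the tau transgene in the summed counts of Pde11a nuclei (members), by library. The vertical axes are CPM, circles are males, triangles females, and the black bar is the mean ± SD of a group; Ddx60 lies at 0.332 to 0.393 CPM in WT, 2.40 to 11.2 in PS19 and 0.830 to 1.89 in CLEAR_PS19, and Fbxl7 is the gene called lower.

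The 3 non-coding genes of chromosome 3 were called higher with the transgene. Gm43049 (140692038 to 140760704, minus strand) had no UMI in the Pde11a nuclei of any of the 7 libraries without the transgene and stood at 88.7 to 204 CPM in the 7 with it. Gm32754 (140904998 to 140917459, minus strand) and 4930590L14Rik (140951876 to 140953247, plus strand) lie next to it and were called too. The adjusted p of Gm43049 was 7.49e-10 by edgeR's quasi-likelihood test, and no fold is given against libraries at 0. Gm43049 could pass the filter on low counts only through libraries with the transgene. In all non-granule excitatory nuclei Gm43049 stood at 0.0911 CPM in CLEAR 1 and 0.152 in CLEAR 2, and at 0 in the other libraries without the transgene.

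Fbxl7 encodes an F-box protein of ubiquitin ligases. It stood at 88.2, 66.8 and 125 CPM in WT and 40.2, 46.9 and 79.1 in PS19, and at 61.8, 59.4, 71.3 and 128 in CLEAR and 56.4, 62.0, 66.5 and 95.5 in CLEAR_PS19. Females were the highest in each group, and the groups overlapped in both backgrounds. The change was -0.46 (SE 0.0842, adjusted p = 0.0406, edgeR's quasi-likelihood test), lower in 6 of 7 pairs and lost when any of 12 of the 14 libraries was left out.

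The lists below held no called gene for the tau transgene, which is near the 0.116% of all genes called, so nothing is read from it. None of 42 lysosomal genes tested was called (28 positive, 14 negative), nor any of 20 V-ATPase genes (14 positive, 6 negative). The same held for 16 phosphodiesterases (7 positive, 9 negative), 9 copines (3 and 6), 21 glutamate receptor genes (5 and 16), 28 other genes of cyclic nucleotide signalling (12 and 16) and 27 genes of neuropeptides and modulator receptors (12 and 15). Of the 5 ventral genes 2 had positive and 3 negative changes, and none was called. The marker Dcn had a change of 0.48 within the nuclei (adjusted p = 0.254), which is not read, since the nuclei were chosen on it.

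Whether the CLEAR mutation altered the effect of the transgene was tested as an interaction. None of 15557 genes was called by edgeR's quasi-likelihood test (0%), 622 passed an unadjusted p of 0.05, and DESeq2 called 1. The count was 5 without PS19 3 and 4 without CLEAR_PS19 4. Among the genes with the smallest p, none of them called, were Ccdc81 (2.53), Pglyrp1 (-2.56), Glra3 (-1.46) and Mns1 (-1.26). Ddx60 averaged 6.86 ± 4.40 CPM in PS19 (SD, n = 3) and 1.34 ± 0.456 in CLEAR_PS19 (n = 4), with an interaction value of -1.58 that was not called.

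Whether the transgene acted differently in Pde11a nuclei than in CA1-marker nuclei of the same libraries was tested with library as a block. Of 13922 genes, 4 differed (0.0287%), all with a negative difference, the log2 change in Pde11a nuclei minus that in CA1-marker nuclei. Cdh18, an adhesion molecule of the cadherin family, stood in Pde11a nuclei at 120, 114 and 108 CPM in WT and 131, 134 and 131 in PS19. In CA1-marker nuclei it stood at 110, 122 and 123 in WT and 543, 548 and 406 in PS19. In CLEAR and CLEAR_PS19, CA1-marker nuclei stood at 93.6, 124, 108 and 208 and at 133, 97.6, 164 and 165. In CA1-marker nuclei the PS19 libraries were thus above WT, while CLEAR and CLEAR_PS19 overlapped. The difference between the changes, averaged over both backgrounds, was -0.90 (adjusted p = 0.00625, edgeR's quasi-likelihood test).

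Brinp3 stood at 313, 301 and 190 CPM in Pde11a nuclei of WT and at 338, 302 and 249 in PS19, and in CA1-marker nuclei at 89.9, 108 and 47.0 in WT and 305, 197 and 253 in PS19. In CA1-marker nuclei of CLEAR and CLEAR_PS19 it stood at 35.8, 127, 48.8 and 85.4 and at 145, 149, 92.4 and 138, which overlapped. Its difference was -1.14 (adjusted p = 0.00827). Oprm1 differed by -1.82 (adjusted p = 0.0244) and the glutamate transporter gene Slc1a2 by -0.84 (SE 0.108, adjusted p = 0.000357). In Pde11a nuclei Slc1a2 stood at 71.2, 106 and 101 CPM in WT and 68.1, 73.4 and 94.9 in PS19, a log2 change of -0.24 over both backgrounds that was not called. In CA1-marker nuclei it stood at 67.2, 85.1 and 97.8 in WT and 122, 150.2 and 212 in PS19. There CLEAR (52.1 to 118.8) and CLEAR_PS19 (62.4 to 138) overlapped. The signs of its changes in these sets of nuclei were thus opposite, though neither change was called. In CA1-marker nuclei alone, the log2 change with the transgene was 1.08 for Cdh18 (adjusted p = 0.00117), 2.06 for Oprm1 (0.0057) and 1.18 for Brinp3 (0.0228), all called, and 0.65 for Slc1a2 (0.144), not called. In Pde11a nuclei Oprm1 was at 54.9, 55.3 and 63.0 CPM in WT and 85.0, 61.5 and 74.7 in PS19. There it was at 70.0, 71.5, 50.8 and 55.1 in CLEAR and 57.1, 60.2, 44.8 and 62.8 in CLEAR_PS19, which overlapped. Its means in CA1-marker nuclei were 11.1 (WT), 58.1 (PS19), 15.2 (CLEAR) and 43.9 (CLEAR_PS19). Brinp3 in CA1-marker nuclei was thus below the level of Pde11a nuclei in WT and nearer to it in PS19, in values that rest on 32 to 111 CA1-marker nuclei per library.

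The CA1-marker nuclei themselves differed in markers of other fields. Their summed CA3 genes stood at 99.7 to 175 CPM (WT), 229.5 to 291 (PS19), 76.7 to 239 (CLEAR) and 154 to 291 (CLEAR_PS19), and their dorsal CA1 genes at 1779 to 2187, 1380 to 1653, 1623 to 1860 and 1359 to 1828. Their subiculum genes stood at 8.98 to 22.0, 25.5 to 31.4, 1.37 to 36.8 and 26.5 to 55.1, and their cortical genes at 146.5 to 864, 563 to 866, 198.5 to 779 and 558 to 950.0, in the same order. The part of these markers in the 4 differences was not tested.

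These differences depended on the comparison. Against all other non-granule excitatory nuclei in place of CA1-marker nuclei, none of the 4 was called and 22 other genes were. Without CLEAR 1 and 2 and CLEAR_PS19 1 and 2 the count was 0, and without CLEAR 4 and without CLEAR_PS19 3 it was 14 and 8. C1qb had a difference of -0.33 (adjusted p = 0.991, edgeR's quasi-likelihood test), so it was not shown to change more or less in Pde11a nuclei. For the CLEAR mutation no gene differed between the sets (0%), with 648 at an unadjusted p under 0.05 and 0 by DESeq2.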

How the data were processed

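Nuclei values were raw UMI counts per gene and barcode as deposited, which per the file headers came from Cell Ranger 5.0.1; bulk values were deposited read counts per gene (featureCounts 2.0.0 without strand, per the file header of 1 table). The submitters' processing notes name mm10, STAR, cutadapt, Seurat and DESeq2 without saying which step used which settings. Cell Ranger's treatment of introns and its barcode filter are not given in the sources used here. Libraries held 45090232 to 96045023 UMIs in 7645 to 16839 barcodes, and bulk libraries 9630430 to 17182605 reads in genes. Replicate 2 of PS19 at 9 months in bulk is not analysed here.

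Counts of chosen nuclei were summed per library, since nuclei are not replicates, and tested with edgeR 4.0.16 (R 4.3.3, TMM, quasi-likelihood, filterByExpr, sex as a covariate, none in bulk). Contrasts were averaged over the other factor, and p-values were adjusted by Benjamini-Hochberg over all genes tested, with a threshold of 0.05. Standard errors are of log2 fold changes. Levels between sets of nuclei are log2 ratios of CPM with a prior count of 2. DESeq2 1.42.0 was an alternative. The members and lists were chosen with earlier results of these data known, and the interferon, histocompatibility and 12-gene microglial lists after values were seen. Named were, of the genes called, the 10 with the smallest p in each direction (or 5 if none was called); for levels, the 15 largest ratios each way among genes of at least 50 CPM with 1 sign in every library; and of each list the called genes and the 4 highest in level. The other genes called higher with the transgene, further list genes and those of the Dcn and Epyc splits were named after their values were seen.

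Same-numbered WT and PS19 nuclei libraries deviated together (r = 0.36, 0.39 and 0.63), as did CLEAR and CLEAR_PS19 (0.64, 0.67, 0.57 and 0.62). Across CLEAR status r ran from -0.54 to 0.30 and was not over 0.1 in every pair. Sex and library set were left in these deviations, and libraries of unlike number were not compared. These r values therefore cannot show that the numbers pair libraries. Tested on simulated data for the tau contrast (15289 genes), the fit recovered 74 of 89 genes changed by 1 log2 unit and 104 of 104 changed by 2, with 12 false calls. The simulated libraries had a common mean profile without effects of sex or library set, so these figures may not hold for the real libraries. The RefSeq promoter windows used here held no entry for Atp6v1h, Dcn and Cpne7. Some selected genes are not reported here. Library sets came from average-linkage clustering of granule nuclei profiles into 3 groups. Shares were tested by exact permutation over libraries.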

Additional observations from a re-analysis of the deposited data

Results flagged for a closer look

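The tau transgene was tested for a different effect in Pde11a nuclei than in CA1-marker nuclei, and 4 genes differed by edgeR's quasi-likelihood test: Slc1a2 (-0.84 on the log2 scale), Cdh18 (-0.90), Brinp3 (-1.14) and Oprm1 (-1.82). In 90 groups of 4 to 6 libraries examined for a library far from the others, 3 held one, where chance gives about 1 in 20. Cpne7, a marker of the rule, stood at 311 CPM in CLEAR_PS19 3. C1qb stood at 2.21 CPM in CLEAR_PS19 4. Gm44148 stood at 2.42 CPM in CLEAR 3.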

How the results depend on the processing

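Gene values other than leave-one-out kept direction and side of the threshold in 344 cases; 12 became called, 21 lost their call and 8 turned sign. The share of Pde11a nuclei turned sign on thinning to 3000 UMIs (tau 0.133, CLEAR 0.367), to 5000 UMIs (CLEAR 1.90), with all barcodes of at least 1000 genes as denominator (CLEAR 0.628) and without CLEAR 1 and 2 and CLEAR_PS19 1 and 2 (CLEAR 1.27). Leaving out 1 library gave -5.18 to -3.10 for tau and -2.15 to -0.0704 for CLEAR. The count called for the tau transgene was 59 with DESeq2, 169 with no filter on low counts, 59 with library set as a block, 10 at a marker sum of 7, 46 in males, 6 without CLEAR 1 and 2 and CLEAR_PS19 1 and 2, and 8 to 59 leaving out 1 library. With the replicate block and sex it was 32, and within each CLEAR background, added after seeing the data, 27. For the CLEAR mutation the replicate block with sex gave 3418, and 1 of the 4 markers in all non-granule excitatory nuclei (Pde11a at -0.21). The numbers were not shown to pair libraries, across CLEAR status or within it. The block changed no call of the 4 markers for tau or in bulk. The CLEAR count was 5 with DESeq2, 122 with no filter, 2 in males, and 1 to 5 leaving out 1 library. The interaction count was 1 with DESeq2, 19 with no filter, 1 in males, and 0 to 5 leaving out 1 library. Against CA1-marker nuclei the tau count was 112 with no filter, 22 with all other non-granule excitatory nuclei, 0 without CLEAR 1 and 2 and CLEAR_PS19 1 and 2, and 3 to 14 leaving out 1 library; the CLEAR count was 33, then 1 without those libraries, and 0 to 2. Uncalled values that turned sign were, for tau, Atp6v1h (-0.00325 with no filter, -0.00123 without doublets, -0.0104 in males, -0.0215 to 0.0525 leaving out 1 library), Mapt (-0.00305 with no filter, -0.0172 to 0.0537) and Dcn in all non-granule excitatory nuclei (-0.11 without those 4 libraries, -0.0585 to 0.256). For CLEAR they were Mapt (0.0651 with library set as a block and 0.0687 without those 4 libraries) and Pde11a in all non-granule excitatory nuclei (-0.13 to 0.16). In bulk, leaving out 1 library gave Cpne7 -0.0877 to 0.0341, Epyc -0.0161 to 0.132 and Dcn -0.105 to 0.000712 at 4 months, and Cpne7 -0.0919 to 0.0217 between the ages. With all other non-granule excitatory nuclei as neighbour, the genes at least 2-fold apart split into 83 higher and 271 lower, in place of 310 and 92. The cause of these changes was not tested. Depth limits genes of few UMIs, such as Ddx60 and Oasl2.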
